A study of Sus scrofa with 6 samples.

Results

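The 40 genes described here encode nucleolar proteins and factors of ribosome biogenesis. They were chosen by gene symbol, and all 40 symbols were found among the 30376 genes of the deposited expression table, 1 row each. All 40 also had enough reads to be among the 16056 genes tested. The study cultured pig embryos at 41.5 °C (high temperature, 3 libraries) or at 38.5 °C (control, 3 libraries) for 4 days, to the 4-cell stage, and asked how heat affects the activation of the embryonic genome. Poly(A) RNA of the embryos was captured on oligo(dT) beads and made into libraries with the SMART-Seq v4 kit.

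A ribosome is built in the nucleolus. RNA polymerase I transcribes the ribosomal DNA into a long precursor RNA, small nucleolar ribonucleoproteins (snoRNPs) modify it, and assembly factors fold and cut it into the RNAs of the small and the large subunit. In a grown oocyte the nucleolus is compact and transcriptionally silent. Nucleoli that make ribosomal RNA form again in the embryo around the time its genome is activated, and until then the embryo relies on ribosomes and transcripts stored in the oocyte.

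The embryos of both groups came from oocytes activated with 2 direct-current pulses of 120 V, and the growth protocol names no sperm. The groups differ in the labels by culture temperature alone, apart from a genotype field that reads HT for the heated and WT for the control embryos. About 300 samples went into library construction per the extraction protocol, so each value is an average over pooled embryos. In such pools fewer cells with a transcript and less RNA per cell cannot be told apart. Whether the 3 libraries of a group came from separate cultures is not in the labels. Each p-value therefore reflects the spread between these libraries only, part of which may be technical.

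The libraries held 28114005 to 30079385 reads assigned to genes. All 16 oocyte and early embryo markers found in the table were detected in every library. Of 15 cumulus and granulosa markers found, FSHR, AMH, CYP11A1, FOXL2 and INHA had no reads at all. Counts were scaled to CPM (counts relative to the library size), with library sizes adjusted by TMM, a method that evens out library composition. Cumulus and granulosa markers with reads included VCAN at 6.2 to 9.5 CPM and INHBA at 4.6 to 9.3 CPM (another row of INHBA had no reads). TNFAIP6 was at 1.3 to 3.5 CPM and STAR at 0.49 to 2.3 CPM. The other markers of that list stayed below 1 CPM in every library. The summed level of the cumulus list was 19.5 ± 1.14 CPM at 41.5 °C and 20.1 ± 1.62 CPM at 38.5 °C, and that of 10 stromal and blood markers was 10.9 ± 1.01 CPM at 41.5 °C and 12.0 ± 1.27 CPM at 38.5 °C (SD, n = 3; exact permutation tests, two-sided p = 0.7 and 0.3). The mitochondrial share of all reads was 25.8 ± 1.45 percent at 41.5 °C and 22.6 ± 1.43 percent at 38.5 °C, without overlap between the groups (two-sided p = 0.1 by an exact permutation test, which cannot go lower with 3 against 3 libraries). Its part in the results below was not tested.

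The transcripts differed far more from each other than between the temperatures. Levels between genes are compared in TPM, the authors' length-scaled abundance. The mean over the 6 libraries ran from 0.498 TPM for POLR1A, the largest catalytic subunit of RNA polymerase I, to 1279 TPM for NPM1, the nucleolar chaperone nucleophosmin. Of the 40 genes 7 were above 100 TPM, 23 lay between 5 and 100 TPM and 10 were below 5 TPM. Those above 100 TPM were, in falling order, NPM1, NOP10, POLR1D, NOP58, MAK16, NHP2 and NOP56. NPM1 alone made up 28.1% to 38.3% of the summed TPM of the 40 genes in a library. The summed level was 4133, 3811 and 3026 TPM at 41.5 °C, against 4735, 3833 and 3544 TPM at 38.5 °C. The groups overlapped, with means of 3657 ± 569.7 TPM at 41.5 °C and 4037 ± 622 TPM at 38.5 °C (SD, n = 3).

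**Figure D1:**
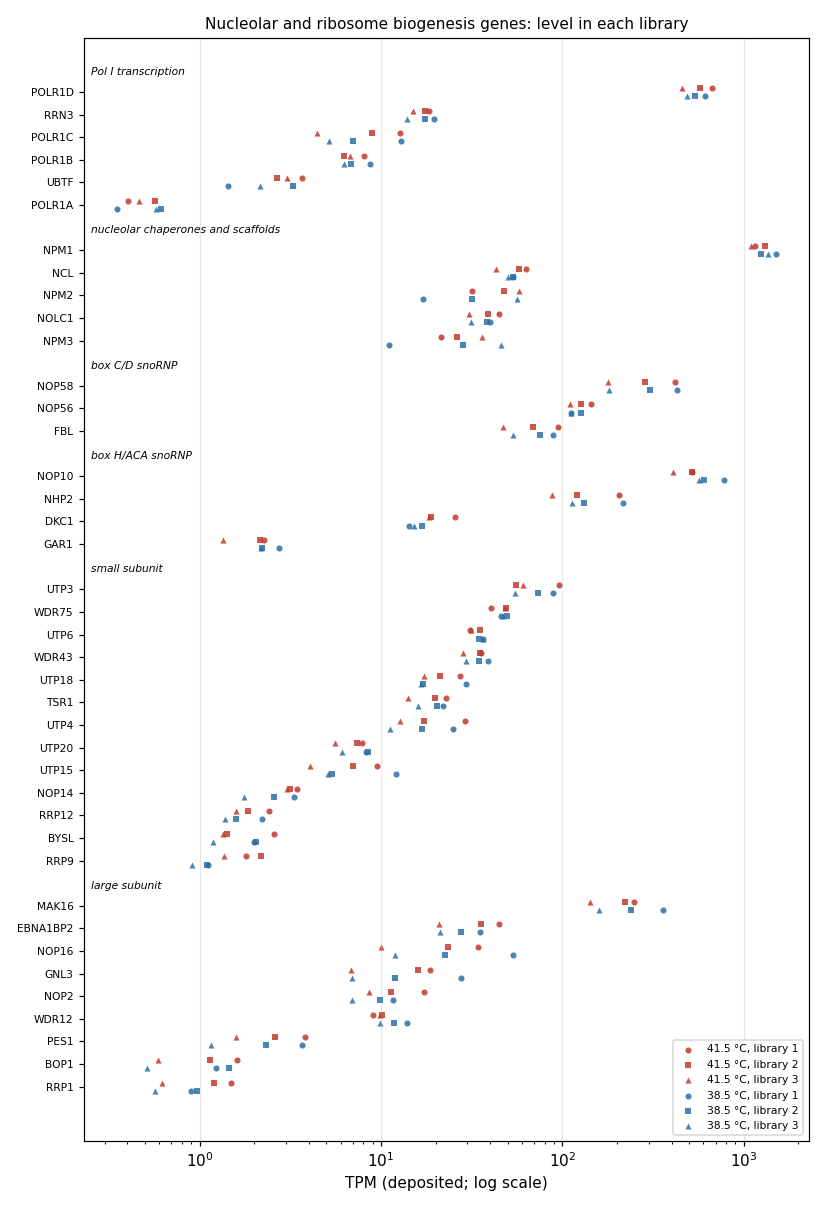
Level of each of the 40 genes (rows, grouped by role) in each library, as deposited TPM on a log axis. Red symbols are the 3 libraries at 41.5 °C, blue symbols the 3 at 38.5 °C, and the symbol shape gives the library number. Means run from 0.498 TPM for POLR1A to 1279 TPM for NPM1, and the red and blue symbols of most genes interleave.

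No difference between the temperatures was called in any of these genes. By the edgeR quasi-likelihood test 0 of the 40 passed an adjusted p of 0.05, against a background of 0% of all genes tested, and the adjusted p of each was 0.999923. At an unadjusted p below 0.05 there were again 0 of 40, where 1.85% of all genes tested lay. DESeq2 called 0 of the 40 as well (background 0.0374%). The log2 fold changes, 41.5 °C over 38.5 °C, ran from -0.55 for NOP10 to 0.67 for RRP9, a protein of the U3 snoRNP. Their median was -0.090, against -0.017 over all genes tested, with 12 values above and 28 below 0. Over all genes tested 47.5% were above and 52.5% below 0. That split depended on the scaling and on single libraries. It was 20 above and 20 below with library totals as the only scaling, which placed 61.6% of all genes tested above 0 and moved their median to 0.078. On the log2(TPM + 1) scale it was 21 above and 19 below, with 60.9% of all genes above 0. Both scalings thus moved the genes as a whole, and the share of the 40 genes above 0, 50% and 52.5%, remained under that of all genes. Without control library 1 it was 32 above and 8 below (median 0.15), where 51.2% of all genes were above 0. Without high-temperature library 3 it was 27 above and 13 below (median 0.14; all genes 50.3% above 0). It was 7 above and 33 below both without control library 3 (median -0.29; all genes 50% above 0) and without high-temperature library 1 (median -0.27; all genes 49.6% above 0).

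The intervals limit the size of a difference. For 22 of the 40 genes the 95% interval lay wholly within a 2-fold change up or down, where the share over all genes tested was 49.7%. It lay within a 4-fold change for 39 of 40, against 91.8% of all genes tested, the exception being NOP16. In 36 of the 40 genes the fold between the group means was smaller than the fold between the highest and the lowest library inside each of the groups. The 4 others were NOP10, DKC1, RRP9 and WDR12. The median fold between group means was 1.12, beside median folds of 1.75 inside the high-temperature group and 1.98 inside the control group (highest over lowest library, CPM).

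**Figure D2:**
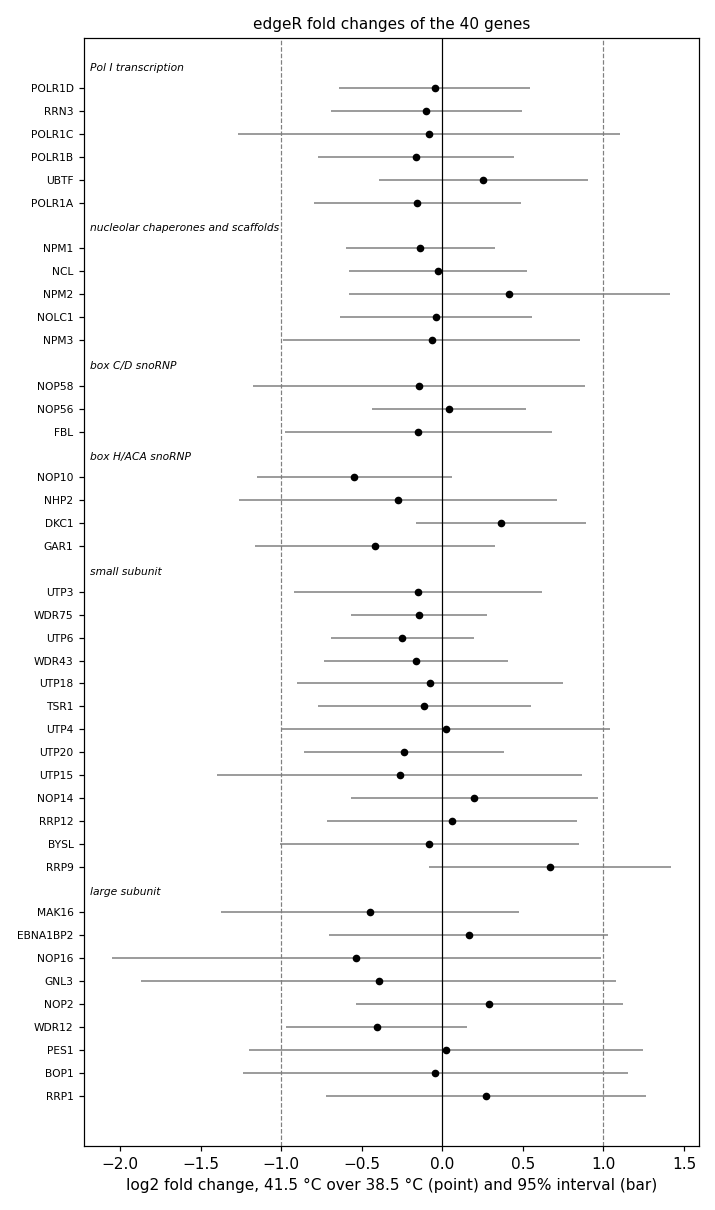
Log2 fold change of each gene, 41.5 °C over 38.5 °C, from the edgeR fit (point), with its 95% interval (bar). The dashed lines mark a 2-fold change in either direction. Every interval holds 0, and the interval of NOP16 (-2.05 to 0.98) is the widest.

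On the TPM scale the groups did not overlap for NOP10, RRP9 and DKC1. NOP10 (GeneID 100156164, chromosome 7, 80161024 to 80162299, plus strand, Sscrofa11.1 as for all positions here) encodes a small core protein of the box H/ACA snoRNPs, which turn uridines of ribosomal RNA into pseudouridine. It was at 517, 516 and 406 TPM at 41.5 °C, against 777, 602 and 567 TPM at 38.5 °C. All 3 heated libraries lay below all 3 control libraries, and NOP10 was the single gene of the 40 for which the groups did not overlap in CPM. Over all genes tested 7.71% did not overlap, with 4.05% lower and 3.66% higher at 41.5 °C. The log2 fold change was -0.55 (standard error 0.26, 95% interval -1.15 to 0.058), with an unadjusted edgeR p of 0.0708 and an adjusted p of 0.999923. Since the groups did not overlap, leaving out a library could hardly turn its sign. The values without each library in turn were -0.70 to -0.27.

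DKC1 (chromosome X, 125218928 to 125228881, plus strand), the pseudouridine synthase of the same particles, was at 25.7, 18.9 and 18.4 TPM at 41.5 °C, against 14.2, 16.8 and 15.2 TPM at 38.5 °C. On the TPM scale its heated libraries all lay above the control libraries, while in CPM they overlapped. Its log2 fold change was 0.36 (standard error 0.23, 95% interval -0.17 to 0.89). RRP9 (chromosome 13, 34067517 to 34075425, minus strand), which helps the U3 snoRNP act on the small subunit precursor, was at 1.80, 2.19 and 1.37 TPM at 41.5 °C, against 1.11, 1.10 and 0.910 TPM at 38.5 °C. It too was without overlap in TPM but not in CPM, and rested on 298 reads over the 6 libraries. In TPM 3 of the 40 genes did not overlap, NOP10, DKC1 and RRP9, beside 7.23% of all genes tested.

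The other 2 box H/ACA proteins also had lower means at 41.5 °C, but their groups overlapped. NHP2 (chromosome 2, 80223439 to 80227614, plus strand), which binds the RNA of the particle, was at 206, 121 and 87.2 TPM at 41.5 °C, against 216, 132 and 114 TPM at 38.5 °C. Library 1 was the highest and library 3 the lowest in each group, so the spread inside a group exceeded the difference of the means. GAR1, which joins the finished particle, was at 1.92 ± 0.500 TPM at 41.5 °C and 2.38 ± 0.324 TPM at 38.5 °C (SD, n = 3). The log2 fold change was -0.28 (standard error 0.43) for NHP2 and -0.42 (standard error 0.32) for GAR1. The 4 proteins stand in the particle together, and their transcripts spanned 2.15 TPM for GAR1, 18.2 TPM for DKC1, 146 TPM for NHP2 and 564 TPM for NOP10 (mean of 6 libraries).

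The core proteins of the box C/D snoRNPs, which add methyl groups to ribosomal RNA, did not differ beyond their spread, and the groups overlapped for each. FBL (fibrillarin, chromosome 6, 48314782 to 48326433, minus strand), the methyltransferase, was at 95.2, 69.3 and 47.1 TPM at 41.5 °C, against 89.0, 75.1 and 53.5 TPM at 38.5 °C. NOP58 (chromosome 15, 105893589 to 105930458, plus strand) was at 420.1, 285 and 178 TPM at 41.5 °C, against 429, 304 and 181 TPM at 38.5 °C. NOP56 (chromosome 17, 32960099 to 32965396, minus strand), its partner in the particle, was at 143, 127 and 111 TPM at 41.5 °C, against 111, 126 and 111 TPM at 38.5 °C. FBL and NOP58 had library 1 highest and library 3 lowest in both groups, while NOP56 varied least of the 3. The log2 fold change was -0.15 (standard error 0.36) for FBL, -0.15 (standard error 0.45) for NOP58 and 0.042 (standard error 0.21) for NOP56.

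Nucleophosmin family genes differed in level and in how they varied. NPM1 (GeneID 100525313, chromosome 16, 52767263 to 52781862, minus strand), an abundant nucleolar chaperone that escorts ribosomal proteins and histones, was at 1161, 1315 and 1095 TPM at 41.5 °C, against 1499, 1249 and 1357 TPM at 38.5 °C. In TPM its libraries lay within 1.20-fold of each other inside either group. In CPM they lay within 1.29-fold at 41.5 °C and 1.40-fold at 38.5 °C. The groups overlapped, and its log2 fold change was -0.14 (standard error 0.20, 95% interval -0.60 to 0.32). NPM2 (nucleoplasmin, chromosome 14, 6288422 to 6303750, plus strand), the member stored in eggs, where in mice it is needed to organise the nucleolus, was at 31.8, 47.7 and 58.0 TPM at 41.5 °C, against 17.1, 31.7 and 56.1 TPM at 38.5 °C. Its lowest library was library 1 in both groups and its highest library 3. NPM3 (chromosome 14, 112819390 to 112822244, minus strand), a histone-binding relative, was at 21.5, 26.3 and 36.2 TPM at 41.5 °C, against 11.1, 28.3 and 46.0 TPM at 38.5 °C, with the same order of libraries as NPM2. The groups overlapped for both genes. The spread was wide, 3.27-fold for NPM2 and 4.15-fold for NPM3 between the highest and lowest control library in TPM. In CPM it was 2.99-fold for NPM2 and 3.29-fold for NPM3. The log2 fold change was 0.41 (standard error 0.43) for NPM2 and -0.066 (standard error 0.40) for NPM3.

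Of the nucleolar scaffold proteins, NCL (nucleolin, chromosome 15, 132163453 to 132174214, minus strand), which binds the nascent precursor RNA, was at 63.1, 57.8 and 42.9 TPM at 41.5 °C, against 53.6, 53.2 and 50.2 TPM at 38.5 °C. NOLC1, which carries snoRNPs between nucleoli and Cajal bodies, was at 38.1 ± 7.30 TPM at 41.5 °C and 36.6 ± 4.49 TPM at 38.5 °C (SD, n = 3). The groups overlapped for both, and the log2 fold changes were close to 0, -0.03 (standard error 0.24) for NCL and -0.038 (standard error 0.26) for NOLC1. A separate row annotated as nucleolin-like (LOC100515519) was counted apart from NCL, and the sources used here do not give how reads common to both were assigned.

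Genes of RNA polymerase I transcription did not differ beyond their spread either, and the groups overlapped for all 6. POLR1D (chromosome 11, 5044274 to 5045921, plus strand), a small subunit shared with RNA polymerase III, was at 670.0, 571 and 455 TPM at 41.5 °C, against 608, 542 and 484 TPM at 38.5 °C. POLR1C (chromosome 7, 38511521 to 38531938, plus strand), the other shared subunit of that pair, was at 12.7, 8.98 and 4.44 TPM at 41.5 °C, against 13.0, 7.02 and 5.20 TPM at 38.5 °C. POLR1D was thus far above POLR1C, and in POLR1C library 1 was 2.86-fold above library 3 at 41.5 °C and 2.49-fold above it at 38.5 °C. By group mean the catalytic subunits were lower still. In library 3, however, POLR1B was above POLR1C, at 6.77 against 4.44 TPM at 41.5 °C and 6.28 against 5.20 TPM at 38.5 °C. POLR1B was at 7.03 ± 0.957 TPM at 41.5 °C and 7.28 ± 1.28 TPM at 38.5 °C (SD, n = 3). POLR1A was at 0.480 ± 0.0834 TPM at 41.5 °C and 0.515 ± 0.143 TPM at 38.5 °C. Neither reached the level of RRN3. RRN3 (chromosome 3, 7537131 to 7571990, minus strand), the factor that brings the polymerase to the promoter, was at 18.4, 17.5 and 15.1 TPM at 41.5 °C, against 19.6, 17.4 and 13.9 TPM at 38.5 °C. UBTF, which binds the ribosomal DNA promoter, was at 3.13 ± 0.505 TPM at 41.5 °C and 2.29 ± 0.921 TPM at 38.5 °C (SD, n = 3), and its lowest library was control library 1 at 1.44 TPM. The log2 fold changes of the 6 genes ran from -0.16 for POLR1B to 0.25 for UBTF. The 95% interval lay within a 2-fold change for all but POLR1C.

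For each of the 13 small subunit factors, RRP9 included, the groups overlapped in CPM. UTP3 (chromosome 8, 67475971 to 67477587, plus strand), a factor of the small subunit processome, was at 96.3, 55.2 and 60.5 TPM at 41.5 °C, against 89.2, 73.5 and 54.8 TPM at 38.5 °C. WDR75 (chromosome 15, 93981054 to 94026479, plus strand), of the part of the processome that links to transcription, was at 40.2, 49.2 and 48.0 TPM at 41.5 °C, against 45.8, 49.4 and 47.0 TPM at 38.5 °C. UTP6 (chromosome 12, 43061579 to 43089479, plus strand), another processome protein, was at 30.8, 35.0 and 31.5 TPM at 41.5 °C, against 36.4, 34.9 and 36.7 TPM at 38.5 °C. WDR75 and UTP6 were among the steadiest of the 40 genes, with libraries at most 1.22-fold apart inside a group in TPM and 1.25-fold in CPM. UTP6 had a log2 fold change of -0.25 (standard error 0.19, 95% interval -0.69 to 0.20), UTP3 of -0.15 (standard error 0.33) and WDR75 of -0.14 (standard error 0.18).

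The remaining small subunit factors had lower means over the 6 libraries than UTP6. WDR43 was at 33.1 ± 3.93 TPM at 41.5 °C and 34.4 ± 4.78 TPM at 38.5 °C (SD, n = 3). UTP4 was at 19.6 ± 8.40 TPM at 41.5 °C and 17.7 ± 6.94 TPM at 38.5 °C. UTP15 was at 6.89 ± 2.75 TPM at 41.5 °C and 7.53 ± 3.93 TPM at 38.5 °C. All 3 belong to the same transcription-linked part of the processome as WDR75. UTP18, a further processome protein, was at 21.9 ± 5.04 TPM at 41.5 °C and 21.2 ± 7.33 TPM at 38.5 °C. UTP20, another, was at 6.96 ± 1.20 TPM at 41.5 °C and 7.64 ± 1.36 TPM at 38.5 °C. NOP14, which holds processome parts together, was at 3.20 ± 0.206 TPM at 41.5 °C and 2.56 ± 0.789 TPM at 38.5 °C. None of these 6 had an unadjusted edgeR p below 0.05. BYSL (bystin), of later small subunit precursors, was at 1.78 ± 0.693 TPM at 41.5 °C and 1.75 ± 0.484 TPM at 38.5 °C. TSR1, a factor of the same late precursors, was at 19.0 ± 4.44 TPM at 41.5 °C and 19.5 ± 3.09 TPM at 38.5 °C. RRP12, a factor of subunit export, was at 1.95 ± 0.420 TPM at 41.5 °C and 1.73 ± 0.437 TPM at 38.5 °C. The small subunit group had 4 log2 fold changes above 0 and 9 below, with a median of -0.11. Over all genes tested 47.5% were above 0.

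The 9 large subunit factors had the widest gap between libraries of the 6 role groups, with a median CPM ratio of library 1 over library 3 of 2.39 at 41.5 °C and 2.83 at 38.5 °C. TMM scaled the size of control library 1 by 0.865 and that of control library 3 by 1.04, which raises the ratio at 38.5 °C. Its factors of 1.01 for high-temperature library 1 and 1.09 for high-temperature library 3 raise the ratio at 41.5 °C as well. The groups overlapped for all 9. MAK16 (unplaced scaffold, 129855 to 139558, plus strand), a factor of early large subunit precursors, was at 247, 221 and 141 TPM at 41.5 °C, against 360.2, 239.8 and 160.1 TPM at 38.5 °C. NOP16 (chromosome 2, 81488191 to 81498623, plus strand), also of these precursors, was at 34.3, 23.5 and 10.1 TPM at 41.5 °C, against 53.7, 22.5 and 12.0 TPM at 38.5 °C. EBNA1BP2 (chromosome 6, 168049486 to 168057761, plus strand), the partner of another early factor, was at 44.9, 35.5 and 20.8 TPM at 41.5 °C, against 35.2, 27.5 and 21.2 TPM at 38.5 °C. Library 1 exceeded library 3 in both groups for each of these, by 3.42-fold at 41.5 °C and 4.47-fold at 38.5 °C for NOP16 in TPM. Control library 1 was the highest of all 6 for MAK16 and NOP16, and high-temperature library 1 for EBNA1BP2. The log2 fold change was -0.45 (standard error 0.40) for MAK16, -0.53 (standard error 0.66) for NOP16 and 0.16 (standard error 0.38) for EBNA1BP2. Each turned its sign when 1 library was left out, with values up to 0.037 for MAK16 and 0.42 for NOP16 and down to -0.13 for EBNA1BP2.

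GNL3 (nucleostemin), a nucleolar GTPase of dividing stem cells, was at 13.8 ± 6.24 TPM at 41.5 °C and 15.6 ± 10.8 TPM at 38.5 °C (SD, n = 3), with control libraries from 6.96 to 27.7 TPM. The PeBoW complex, which processes the large subunit precursor, consists of PES1, BOP1 and WDR12. WDR12 was at 9.68 ± 0.576 TPM at 41.5 °C and 11.9 ± 2.02 TPM at 38.5 °C. PES1 was at 2.67 ± 1.12 TPM at 41.5 °C and 2.39 ± 1.27 TPM at 38.5 °C. BOP1 was at 1.11 ± 0.507 TPM at 41.5 °C and 1.07 ± 0.492 TPM at 38.5 °C. WDR12 was thus above its partners in both groups, and its log2 fold change was -0.41 (standard error 0.24, 95% interval -0.97 to 0.16), with an unadjusted edgeR p of 0.134 and an adjusted p of 0.999923. NOP2, a methyltransferase of large subunit RNA, was at 12.4 ± 4.47 TPM at 41.5 °C and 9.48 ± 2.35 TPM at 38.5 °C. RRP1, a factor of large subunit precursors, was at 1.10 ± 0.446 TPM at 41.5 °C and 0.812 ± 0.213 TPM at 38.5 °C. The median log2 fold change of the large subunit factors was -0.044, with 4 above and 5 below 0.

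Reads of overlapping genes limit some of these values, since the kit does not mark strand. The spans of 17 of the 40 genes overlap another annotated gene, and for 8 of them that gene held more than 10% as many reads. They were POLR1C (with XPO5), POLR1A (PTCD3), UTP18 (MBTD1), TSR1 (SRR and SGSM2), UTP20 (ARL1), NOP14 (GRK4), GNL3 (PBRM1) and WDR12 (CARF). For POLR1A the overlapping gene held 2909 reads against 416 of its own, and for POLR1C 4847 against 2815. The overlapping gene also held more reads for UTP20 (21446 against 11303), GNL3 (10255 against 4440) and UTP18 (7899 against 6965). The sources used here do not give how reads in the shared stretches were assigned. Over the 23 genes without any overlap the median log2 fold change was -0.066, with 9 above and 14 below 0.

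Most of these genes shared 1 order of libraries, and it was the same at both temperatures. In 31 of the 40 genes library 1 was the highest and library 3 the lowest of its group in both groups (CPM), beside 20% of all genes tested. The count was 25 with library totals as the only scaling and 23 in TPM, beside 15.8% and 14.5% of all genes. It held for all 3 box C/D and all 4 box H/ACA proteins, 8 of 9 large subunit factors, 10 of 13 small subunit factors, 4 of 6 polymerase I genes and 2 of 5 chaperones and scaffolds. The opposite order, library 3 highest and library 1 lowest, was found in NPM2 and NPM3 alone, beside 16.9% of all genes tested. UBTF, POLR1A, NPM1, WDR75, UTP6, RRP9 and WDR12 followed neither. The labels do not say what the library numbers stand for.

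**Figure D3:**
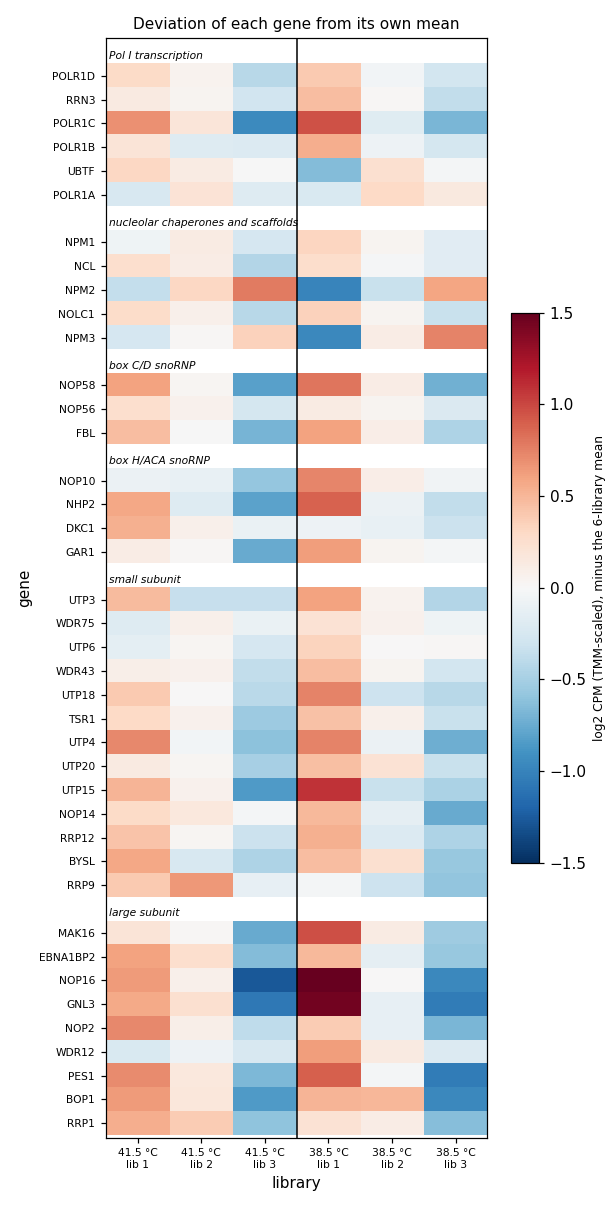
Deviation of each gene (rows, grouped by role) from its own mean over the 6 libraries (columns), in log2 CPM with TMM-scaled library sizes. Red is above and blue below the mean. Library 1 of both groups is mostly red and library 3 of both groups mostly blue, while NPM2 and NPM3 run the other way.

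Other measures moved with that order. The median deviation of the 40 genes from their own means was 0.31, 0.061 and -0.41 at 41.5 °C, against 0.47, 0.03 and -0.37 at 38.5 °C (log2 CPM). The 81 cytosolic ribosomal protein genes tested had medians of 0.62, 0.016 and -0.74 at 41.5 °C, against 0.95, -0.11 and -0.68 at 38.5 °C, and 75 of them had library 1 highest and library 3 lowest in both groups. Residual 18S ribosomal RNA (RN18S), which lacks a poly(A) tail, ran the other way. It was at 218, 422 and 968 CPM at 41.5 °C, against 105, 347 and 554 CPM at 38.5 °C. The 16 oocyte and early embryo markers had medians of -0.09, -0.11 and 0.29 at 41.5 °C, against -0.39, 0.12 and 0.25 at 38.5 °C, and 0 of them had library 1 highest and library 3 lowest in both groups. The part of these measures in the order of the 40 genes was not tested.

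**Figure D4:**
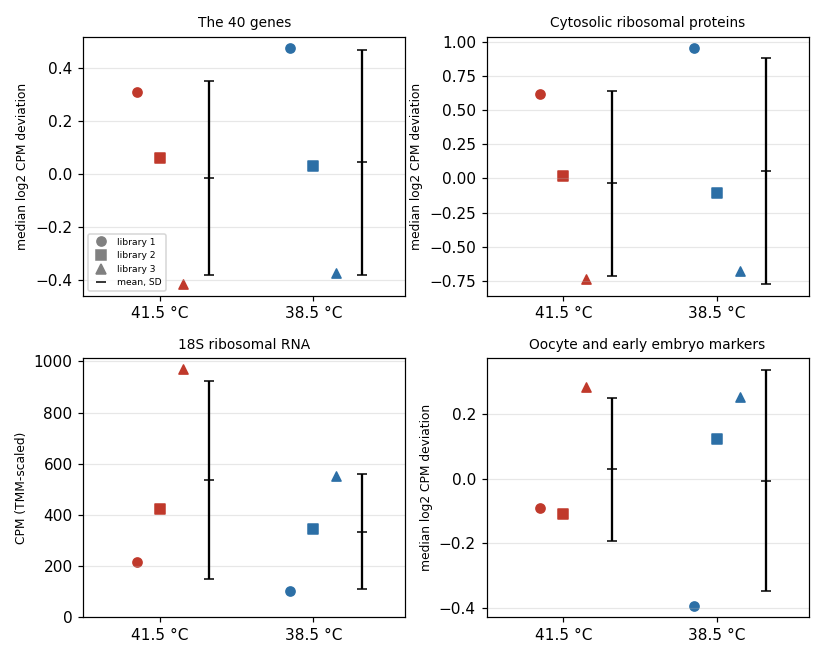
Library values at 41.5 °C (red) and 38.5 °C (blue), with the mean and SD of each group in black and the library number by symbol. The panels give the median log2 CPM deviation of the 40 genes, of ribosomal protein genes and of oocyte and early embryo markers, and the CPM of 18S ribosomal RNA. The 40 genes and the ribosomal protein genes are highest in library 1 and lowest in library 3 of both groups, and 18S ribosomal RNA is the reverse.

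Genes of the wider pathway were not called either. Of 130 other ribosome biogenesis genes tested, 0 passed the edgeR test (background 0%), with 53 log2 fold changes above and 77 below 0 and a median of -0.082. With library totals as the only scaling 69 were above and 61 below, where 61.6% of all genes were above 0. Without control library 1 the split was 93 above and 37 below, and without high-temperature library 3 it was 84 above and 46 below. It was 33 above and 97 below without control library 3, and 25 above and 105 below without high-temperature library 1. Over all genes 49.6% to 51.2% were above 0 in these fits. In the main fit 3 of the 130 had an unadjusted p below 0.05 (background 1.85%). RRP1B, a relative of RRP1, was at 0.742 ± 0.236 TPM at 41.5 °C and 0.297 ± 0.0943 TPM at 38.5 °C (SD, n = 3). NOL8, a nucleolar protein, was at 6.04 ± 0.513 TPM at 41.5 °C and 8.49 ± 1.02 TPM at 38.5 °C. EXOSC7, a subunit of the RNA exosome, was at 10.2 ± 1.41 TPM at 41.5 °C and 14.6 ± 0.888 TPM at 38.5 °C. The log2 fold change was 1.03 (standard error 0.38) for RRP1B, -0.60 (standard error 0.23) for NOL8 and -0.61 (standard error 0.23) for EXOSC7, each with an edgeR adjusted p of 0.999923. In all 3 the groups did not overlap, as in 6 of the 130 genes (background 7.71%). Library 1 was highest and library 3 lowest in both groups in 73 of the 130, beside 20% of all genes.

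Among the other polymerase I genes, ZNRD1, a polymerase subunit, was at 12.3 ± 4.40 TPM at 41.5 °C and 17.9 ± 7.02 TPM at 38.5 °C (SD, n = 3). TAF1C, of the promoter selectivity factor, was at 0.742 ± 0.295 TPM at 41.5 °C and 0.474 ± 0.0386 TPM at 38.5 °C. TCOF1 (treacle), which promotes ribosomal DNA transcription, was at 0.893 ± 0.342 TPM at 41.5 °C and 0.843 ± 0.139 TPM at 38.5 °C. Of the 11 genes of that list 3 had values above 0 and 8 below 0, beside 47.5% of all genes above 0.

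Of 43 other small subunit genes 19 had values above and 24 below 0. HEATR1, of the transcription-linked processome part, was at 11.1 ± 1.94 TPM at 41.5 °C and 10.5 ± 0.959 TPM at 38.5 °C (SD, n = 3). RIOK2, a kinase of late precursors, was at 53.2 ± 4.00 TPM at 41.5 °C and 69.0 ± 15.1 TPM at 38.5 °C, and WDR46, of the processome, at 1.16 ± 0.252 TPM at 41.5 °C and 0.731 ± 0.231 TPM at 38.5 °C. NAT10, which acetylates ribosomal RNA, was at 54.7, 74.8 and 105 TPM at 41.5 °C, against 28.8, 61.1 and 106 TPM at 38.5 °C. In NAT10 library 1 was the lowest and library 3 the highest in both groups, as in NPM2 and NPM3.

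Of 55 other large subunit genes 27 had values above and 28 below 0. MDN1, the large ATPase that strips factors from large subunit precursors, was at 1.12 ± 0.108 TPM at 41.5 °C and 1.14 ± 0.236 TPM at 38.5 °C (SD, n = 3). EIF6, which keeps that subunit from joining early, was at 129 ± 36.8 TPM at 41.5 °C and 153 ± 24.0 TPM at 38.5 °C. Of 21 genes of snoRNP assembly and the RNA exosome 4 had values above and 17 below 0, beside 47.5% of all genes above 0. The exosome nuclease DIS3 was at 45.7 ± 10.3 TPM at 41.5 °C and 58.8 ± 9.42 TPM at 38.5 °C. None of the genes of these 4 lists passed the edgeR test. Their separate splits were not followed over other scalings or without single libraries.

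Of 11 regulators of growth and nucleolar stress tested, 0 passed the edgeR test (background 0%), with 2 values above and 9 below 0. Over all genes tested 47.5% were above 0, and this split too was not followed over other scalings. MYC, a factor that drives ribosome biogenesis genes in growing cells, was at 61.4, 48.0 and 51.7 TPM at 41.5 °C, against 55.0, 51.2 and 45.0 TPM at 38.5 °C, and its log2 fold change was -0.015 (standard error 0.23). MAX, its binding partner, was at 17.9, 21.6 and 26.9 TPM at 41.5 °C, against 8.24, 18.2 and 18.2 TPM at 38.5 °C. MTOR, the kinase that couples growth to nutrients, was at 0.184 ± 0.0371 TPM at 41.5 °C and 0.267 ± 0.0854 TPM at 38.5 °C (SD, n = 3). The groups did not overlap in CPM for MAX (higher at 41.5 °C) and RPTOR (lower at 41.5 °C), 2 of the 11, beside 7.71% of all genes tested. RPTOR, a subunit of the complex that holds MTOR, was at 0.0998 ± 0.0180 TPM at 41.5 °C and 0.148 ± 0.0365 TPM at 38.5 °C. It rested on few reads, 16, 12 and 15 at 41.5 °C, against 17, 25 and 23 at 38.5 °C. In TPM the libraries of both MAX and RPTOR overlapped.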

How the data were processed

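The authors deposited a whole-number read count for every gene, with no normalization, per the file headers. Per the same file headers they also deposited FPKM and TPM, both scaled for gene length and library size. Coverage, a per-base signal also deposited by the authors, was used in no result. For upstream steps the submitters' processing notes list, without roles, the build Sscrofa11.1 and the tools StringTie 2.1.3b, Bowtie2, HISAT, HISAT2 2.1.0 and Trimmomatic 0.38. The counting tool was not given in the sources used here. Series columns headed T were taken as HT by number, and their FPKM matched each sample's own table (99.4% or more of genes within 1e-05).

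All genes of the table entered one edgeR 4.0.16 fit in R 4.3.3. It used TMM scaling, the tool's standard filter on low counts (16056 of 30376 genes passed), temperature as its only term, the quasi-likelihood test and Benjamini-Hochberg adjustment over every gene tested. DESeq2 1.42.0 and limma 3.58.1 served for alternatives. Positions came from a RefSeq gene table of Sscrofa11.1 (30352 genes matched by Entrez ID). The fit was tested on simulated data with known changes, where it did not call 2-fold changes at this number of libraries and called larger ones. The share called is not given here. The simulated libraries had no shared order by library number, unlike the real ones, so what the fit can call in these data may differ. The 40 genes and all lists were chosen with earlier results of these data known. Values in every library are given for the 3 most abundant genes of each role group, the nucleophosmin family and any gene with an unadjusted p below 0.05 or without overlap between the groups. RRP9 was added after its values were seen. Of the other pathway genes, the 2 with the smallest unadjusted p in each list are named, with TCOF1, HEATR1, NAT10, MDN1, EIF6 and MYC whatever their result, and RPTOR was added after its values were seen.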

Additional observations from a re-analysis of the deposited data

How the results depend on the processing

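No alternative brought any of the 40 genes past the adjusted threshold. Over all genes tested, edgeR called 0, DESeq2 called 6, edgeR without the filter on low counts called 1, and leaving out each library in turn gave 0 each time. The replicate numbers were checked as a possible pairing. Deviations from the group means correlated at 0.516, 0.008 and 0.586 for libraries of the same number, and high-temperature library 2 correlated best with control library 1 (0.141). Libraries numbered 1 and those numbered 3 deviated together and those numbered 2 did not. Library 2 lay in the middle of the order that most of the 40 genes shared. Its low correlation therefore cannot decide whether the numbers are a pairing. The labels do not say what a number stands for, and the main fit did not take the numbers as a pairing. A fit with that number as a replicate block called 3 genes and 0 of the 40. The smallest adjusted p among the 40 was 0.363. An unadjusted p below 0.05 was found there for 6 of the 40 and for 1485 of the 16056 genes tested. Standard errors were smaller in that fit for each of the 19 genes given in full by the rule. The log2 fold change was -0.13 (standard error 0.10) for NOP58, -0.28 (0.12) for NHP2 and 0.49 (0.14) for NPM2. The intervals of the main fit thus include spread shared by libraries of the same number.

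Of the 40 genes, the number without overlap between the groups was 1 in TMM-scaled CPM and 3 with library totals only, on the log2(FPKM + 1) scale and on the log2(TPM + 1) scale. It was 1 to 4 when single libraries were left out, where the share over all genes was up to 18.5%. The median log2 fold change of the 40 genes ran from -0.29 to 0.15 over these fits. Leaving out both libraries of 1 number, chosen after the data were seen, gave medians of -0.0039 without number 1, -0.13 without number 2 and -0.053 without number 3. The same 3 fits left 4, 3 and 7 genes without overlap (background 25.2%, 20.4% and 26.7%) and called 1 gene in all without number 3.

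Of the 323 alternative values for the 19 genes given in full by the rule, 49 changed sign, and 0 passed the threshold. Several of these values lie near 0. Library totals only moved the median log2 fold change of all genes from -0.017 to 0.078, log2(FPKM + 1) to 0.034 and log2(TPM + 1) to 0.040. With library totals only, POLR1D was at 0.060, RRN3 at 0.015, POLR1C at 0.052 and NCL at 0.070. On the log2(FPKM + 1) scale POLR1D was at 0.044, RRN3 at 0.013, POLR1C at 0.034, NCL at 0.045 and NPM3 at 0.15. On the log2(TPM + 1) scale POLR1D was at 0.042, RRN3 at 0.011, POLR1C at 0.032, NCL at 0.042 and NPM3 at 0.15. With the replicate block NPM3 was at 0.064. Without number 1, POLR1D was at 0.0045, RRN3 at 0.066, POLR1C at 0.15, NPM1 at 0.023 and WDR75 at 0.0090. Without number 3, POLR1D was at 0.021, POLR1C at 0.0040, NCL at 0.095 and NPM3 at 0.24. Leaving out single libraries gave -0.22 to 0.16 for POLR1D, -0.29 to 0.14 for RRN3, -0.48 to 0.53 for POLR1C, -0.25 to 0.0025 for NPM1, -0.17 to 0.18 for NCL, -0.41 to 0.39 for NPM3, -0.53 to 0.29 for NOP58, -0.083 to 0.20 for NOP56, -0.46 to 0.15 for FBL, -0.72 to 0.19 for NHP2, -0.48 to 0.15 for UTP3, -0.75 to 0.037 for MAK16, -0.13 to 0.49 for EBNA1BP2 and -0.99 to 0.42 for NOP16. NPM2, NOP10, DKC1 and UTP6 kept their direction in every fit. For NOP10, whose groups did not overlap, leaving out libraries could hardly have turned it. Nearly the same holds for DKC1, whose groups did not overlap in TPM. In CPM they overlapped only by high-temperature library 3 (20.4 CPM) below control library 1 (20.6 CPM). The cause of these changes of sign was not tested. The 10 genes below 5 TPM had 208 (RRP1) to 1280 (UBTF) reads over the 6 libraries, as low as 21 in a library. Counts this low limit precision, but wide intervals were not confined to these genes. The largest standard error of the 40 genes was 0.66 for NOP16, with 15871 reads.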
